A study of Rattus norvegicus with 22 samples.

Results

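The 10 immediate early genes Fos, Fosb, Fosl2, Jun, Junb, Egr1, Egr2, Arc, Npas4 and Nr4a1 were taken by exact symbol from the 17310 genes listed in every library, and all 10 were present. Their read counts were examined in RNA-seq libraries from the nucleus accumbens (NAc, core and shell) of 22 adult male Wistar rats, an outbred strain, with 1 library per rat. In experiment 1, 5 rats drank only water and 5 rats could choose between water and 6% ethanol (EtOH) for 8 weeks. In experiment 2, all 12 rats could drink 6% EtOH or water for 4 weeks, were then dosed by gavage (a tube into the stomach) for 3 weeks, and drank for 2 further weeks. The gavage fluid was water in 6 of these rats and EtOH in the other 6, at 2.5 g/kg in a 30% solution 2 times daily. Both groups of experiment 2 had therefore drunk EtOH, and the gavage had ended 2 weeks before the tissue was taken. Tissue was taken within minutes of removing the EtOH bottles. Each experiment was compared on its own, and the question was whether EtOH changed these genes and whether they varied together among rats of the same group.

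Immediate early genes are transcribed within minutes of neuronal firing or receptor stimulation, without a need for new protein, because the factors that switch them on (SRF, CREB and their partners) are already present in the cell. Their transcripts are short-lived, so the level in a tissue sample reflects the recent past of the animal, and in the striatum Fos and Arc are widely used as marks of recent activity. Fos, Fosb and Fosl2 pair with Jun or Junb to form the transcription factor AP-1, Egr1 and Egr2 encode zinc finger factors, Npas4 an activity-dependent factor of the bHLH-PAS family, Nr4a1 an orphan nuclear receptor, and Arc a synaptic protein that takes part in the removal of AMPA receptors.

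The 250 bases upstream of the annotated start were read from RefSeq (GRCr8) for the 7 members found in its promoter table, Fosb, Fosl2, Junb, Egr1, Egr2, Npas4 and Nr4a1. The CArG box, the site that SRF recognises, was found in 1.5% of the 33469 promoters of the same length and in Egr1 and Egr2. In Egr1 it stood 105 and 83 bases upstream of the start, and in Egr2 83 bases upstream. TGACG, the core letters of a CREB site, was found on either strand in 18.2% of promoters and in Junb, Egr1, Egr2 and Nr4a1. TATAAA was found in 12.9% of promoters and in Fosb and Junb, and GCGGGGGCG, the letters bound by EGR proteins, in 2.45% of promoters and in Fosl2 and Nr4a1. The 4 windows below are shown because Nr4a1 and Junb formed the most closely varying pair of experiment 1, Egr2 held both a CArG box and TGACG, and Fosl2, which did not vary with the others, held neither. Npas4, which did vary with the others in experiment 1, and Fosb also held neither and are not shown. Capitals mark CArG boxes and TGACG, the latter as its reverse complement where it lies on the opposite strand. None of the matches overlapped another. Each window is written 5′ to 3′ toward the start: Egr2 at chr20:21054442-21054691 (minus strand), Nr4a1 at chr7:134259888-134260137 (plus strand), Junb at chr19:40080876-40081125 (plus strand) and Fosl2 at chr6:30039270-30039519 (minus strand).
Egr2: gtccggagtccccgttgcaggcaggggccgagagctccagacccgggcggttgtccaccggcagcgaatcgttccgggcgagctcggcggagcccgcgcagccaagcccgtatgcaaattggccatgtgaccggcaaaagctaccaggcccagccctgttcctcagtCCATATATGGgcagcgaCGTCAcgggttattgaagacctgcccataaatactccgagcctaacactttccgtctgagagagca
Nr4a1: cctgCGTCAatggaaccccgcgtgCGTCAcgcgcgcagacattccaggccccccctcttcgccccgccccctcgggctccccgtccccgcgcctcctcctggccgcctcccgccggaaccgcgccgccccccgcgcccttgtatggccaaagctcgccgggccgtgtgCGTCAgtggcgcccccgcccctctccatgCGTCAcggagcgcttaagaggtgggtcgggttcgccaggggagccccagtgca
Junb: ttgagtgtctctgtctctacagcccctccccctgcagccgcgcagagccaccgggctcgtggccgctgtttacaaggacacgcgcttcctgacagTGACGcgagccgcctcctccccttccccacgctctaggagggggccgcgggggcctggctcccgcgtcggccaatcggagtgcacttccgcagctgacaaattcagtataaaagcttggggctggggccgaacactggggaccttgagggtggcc
Fosl2: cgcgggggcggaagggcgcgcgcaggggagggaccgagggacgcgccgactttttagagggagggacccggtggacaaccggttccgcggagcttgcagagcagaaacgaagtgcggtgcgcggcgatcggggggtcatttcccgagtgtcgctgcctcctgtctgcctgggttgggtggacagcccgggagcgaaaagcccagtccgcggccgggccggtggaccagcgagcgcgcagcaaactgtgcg
A match of letters is a description of the window and was not read as a binding site.

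Reads assigned to genes ranged from 2962291 to 5247386 per library in experiment 1 and from 6713617 to 8765472 in experiment 2. The 9 markers of striatal projection neurons were all measured, at a mean of 8.03 to 9.41 log2 CPM (counts scaled to a common library size) per library. Reads assigned to no gene are called reads outside genes below, and their share is of these reads plus the reads on genes. They can include reads within a gene on a strand that was not counted, as the strand setting is unknown. In experiment 2, 3 libraries stood apart, water gavage 1, EtOH gavage 1 and EtOH gavage 2. Their shares were 54.5%, 58.0% and 56.4%, against 46.1% to 52.8% in the other 9. Results of experiment 2 are therefore given with and without these 3 libraries, a split chosen after the data were seen. In tissue samples, fewer cells that express a gene and less RNA per cell cannot be told apart.

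In experiment 1, EtOH drinking was not accompanied by a detectable change in any of the 10 genes. The differences between the groups were small, 9 genes being nominally higher and 1 lower in EtOH rats, with a median log2 difference of 0.15 against -0.0012 over all 8655 genes tested. Leaving out 1 rat moved that median to between -0.053 (without EtOH rat 2) and 0.27 (without water rat 2). Individual rats differed far more than the groups. No member passed a false discovery rate (FDR) of 0.05, and neither did any of the genes tested (percent called 0; lowest FDR 0.536), although 483 genes had an unadjusted P under 0.05. DESeq2 also called 0 genes, with 632 at an unadjusted P under 0.05. For the members, the quasi-likelihood test of edgeR, adjusted by Benjamini-Hochberg over all genes, gave FDR values of 0.945 to 0.995. The groups overlapped for 10 of 10 members, while among all genes tested 0.439% lay wholly higher and 0.404% wholly lower with EtOH.

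**Figure D1:**
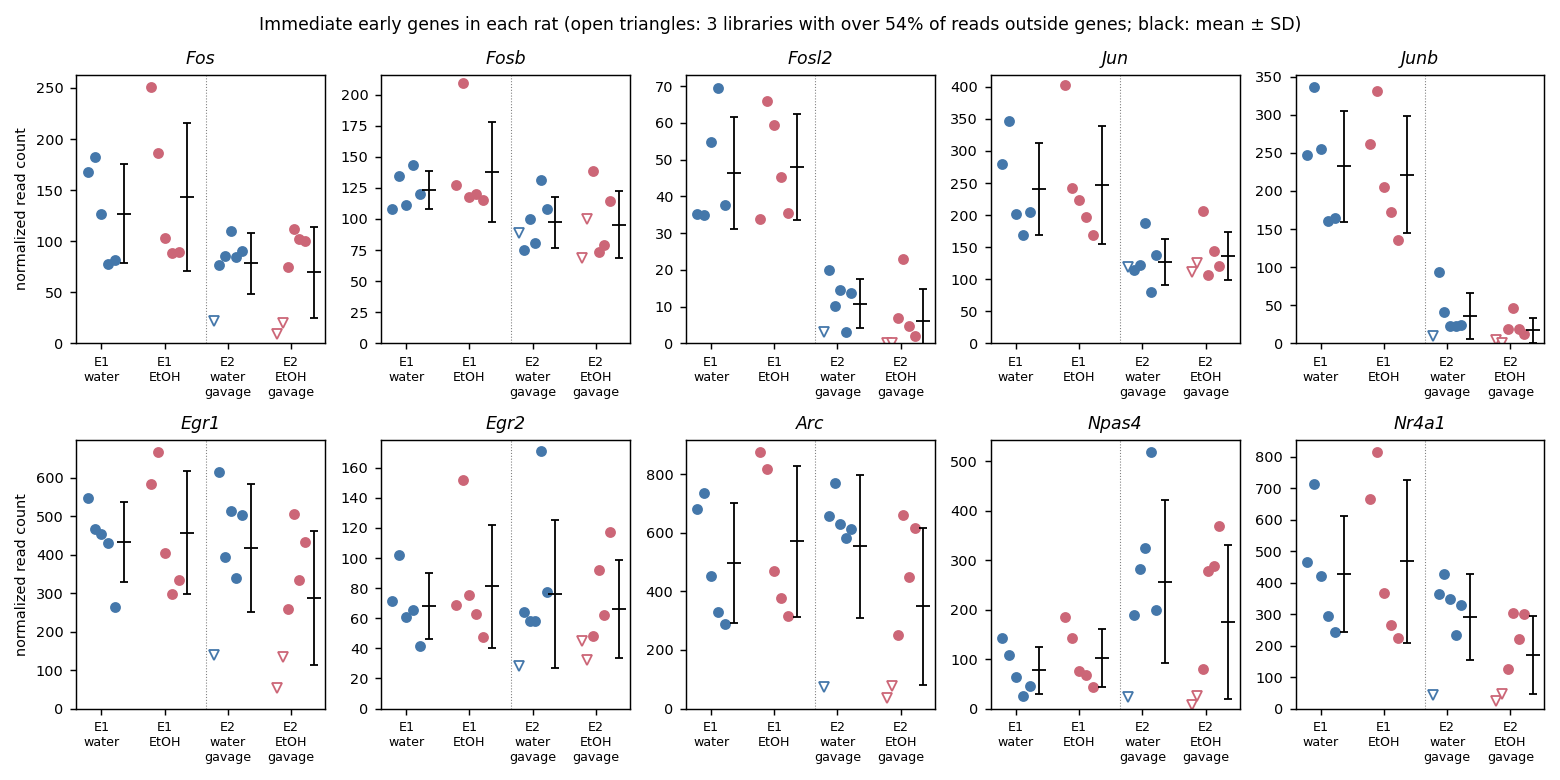
Normalized read count (y axis, counts divided by library size factors) of each immediate early gene in each rat, for water and EtOH rats of experiment 1 (E1) and water gavage and EtOH gavage rats of experiment 2 (E2). Filled circles are single rats, open triangles the 3 libraries with over 54% of reads outside genes, and black bars the mean ± SD of a group; the 2 groups of each experiment overlap for every gene, and the triangles lie lowest for Fos, Junb, Egr1, Egr2, Arc, Npas4 and Nr4a1 but not for Fosb, Fosl2 or Jun.

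Among the AP-1 genes, Fos, whose protein is the best known partner in AP-1, had normalized read counts of 168, 182, 126, 77.4 and 81.4 in water rats 1 to 5. The counts of Fos in EtOH rats 1 to 5 were 251, 186, 103, 88.3 and 89.65. Rats 1 and 2 of each group were highest and rats 4 and 5 lowest, and the groups overlapped. The group means were 127 ± 48.1 (SD, n = 5) and 144 ± 72.4 (SD, n = 5), a log2 difference of 0.17 ± 0.30 (SE) with a 95% interval from -0.48 to 0.81. Fosb, which also gives rise to the stable splice product ΔFosB, varied least, from 108 to 143 in water rats and from 115 to 127 in 4 of the EtOH rats. EtOH rat 2 alone reached 209, above every other rat. The log2 difference of Fosb was 0.17 ± 0.16 (SE, n = 5 per group), with a 95% interval from -0.18 to 0.51. The counts are summed per gene, so ΔFosB was not told apart from the full-length transcript.

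Fosl2, a Fos family member that is induced more slowly, was measured at 35.2, 34.9, 54.7, 69.6 and 37.7 in water rats and at 33.8, 66.0, 59.4, 45.2 and 35.4 in EtOH rats. Its high rats were water 4 and EtOH 2 and 3, not the rats with the most Fos, and its log2 difference was 0.073 ± 0.24 (SE). Jun, the main partner of Fos, was measured at 280.1, 347, 201, 169 and 205 in water rats and at 403, 242, 224, 197 and 168 in EtOH rats. EtOH rat 1 was highest, as for Fos, and the groups shared nearly the same range, with a log2 difference of 0.031 ± 0.22 (SE). Junb, a Jun relative that can restrain Jun activity, was measured at 247.5, 336, 255, 160.1 and 164 in water rats and at 261, 331, 205, 172 and 136 in EtOH rats. Rat 2 of each group was highest, and Junb was the one member with a lower value in EtOH rats, at a log2 difference of -0.074 ± 0.23 (SE).

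Of the zinc finger factors, Egr1, which is tied to synaptic plasticity, was measured at 546, 468, 454, 429 and 264 in water rats. In EtOH rats its counts were 583, 667, 403, 299 and 334. EtOH rats 1 and 2 were above all water rats and EtOH rats 4 and 5 below 4 of them, so that the log2 difference was 0.087 ± 0.21 (SE). Egr2, a factor also known from myelinating cells, ranged from 41.4 to 102 in water rats. In the EtOH group it was 152 in rat 2 and 47.6 to 75.3 in the other 4, with a log2 difference of 0.28 ± 0.29 (SE). EtOH rat 2 had the highest count of Egr1, Egr2 and Fosb of all 10 rats.

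Npas4, the most activity-specific of these factors, was measured at 143, 109, 64.2, 26.25 and 45.9 in water rats and at 185, 142, 75.3, 67.7 and 44.3 in EtOH rats. The highest water rat exceeded the lowest 5.46 times and the highest EtOH rat the lowest 4.17 times, on raw counts of 20 to 142. Npas4 had the largest nominal difference of the 10 genes, a log2 difference of 0.41 ± 0.40 (SE) with a 95% interval from -0.45 to 1.27, and the exact permutation test over rats gave p = 0.429 (two-sided). The estimate was 0.12 without EtOH rat 1 and 0.72 without water rat 1. Nr4a1 was measured at 466, 712, 422, 293 and 243 in water rats and at 664, 814, 369, 267 and 224 in EtOH rats. Rats 1 and 2 were again highest in each group, and the log2 difference was 0.13 ± 0.33 (SE). Arc, the synaptic effector, was measured at 683, 737, 452, 328 and 287 in water rats and at 875, 818, 468, 378 and 314 in EtOH rats. The order of the rats was close to that of Fos, and the log2 difference was 0.20 ± 0.30 (SE) with a 95% interval from -0.43 to 0.83.

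**Figure D2:**
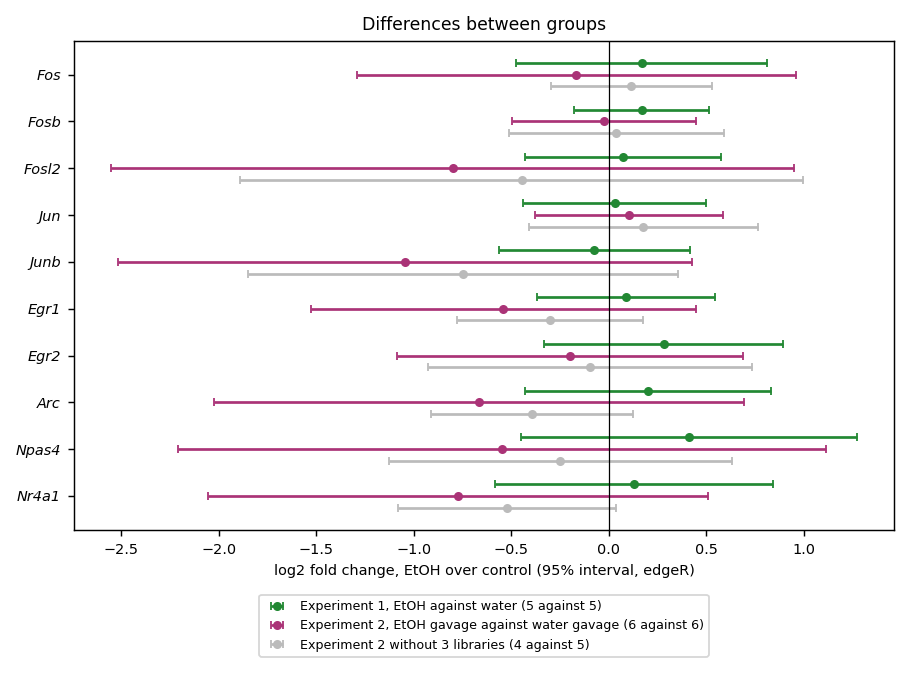
Log2 fold change of EtOH over control rats (x axis) for each immediate early gene, as estimate and 95% interval from edgeR, for experiment 1 (5 against 5 rats), experiment 2 (6 against 6) and experiment 2 without the 3 libraries (4 against 5). Every interval includes 0, from Npas4 at 0.41 in experiment 1 to Junb at -1.04 in experiment 2.

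Across the 10 genes of experiment 1, exact permutation tests gave p = 0.429 to 0.984 (two-sided), where 0.00794 was the smallest value that 5 against 5 rats can give. Leaving out 1 rat turned the direction of 8 of the 10 genes, Arc and Npas4 being the exceptions. Beside the small group differences, the spread among rats of a group was wide. The within-group SD of log2 CPM had a median of 0.505 over the members and 0.162 over all genes tested. Ranked among all genes tested, 9 members lay between percentile 97.2 (Fosl2) and 99.8 (Npas4), and Fosb lay at percentile 86.5.

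The members also varied together among rats of the same group. For each pair of members, Pearson's r was taken over the 10 rats on the deviations of log2 CPM from the group mean. The median over the 45 pairs was 0.758, with a jackknife SE of 0.107, against -0.001 over all pairs of genes tested. An r of 0.7 or more was found in 25 of the 45 pairs (55.6%), where 2.37% of all pairs of tested genes reached it. The median was 0.705 among water rats alone and 0.783 among EtOH rats alone, and it stayed between 0.689 and 0.792 when any 1 rat was left out. It did not stay so high with the replicate number as a block, at 0.167 with 11 pairs of 0.7 or more. Rats 1 and 2 had the highest levels of Fos, Jun, Egr1, Arc, Npas4 and Nr4a1 in both groups, and no label says what the number marks.

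**Figure D3:**
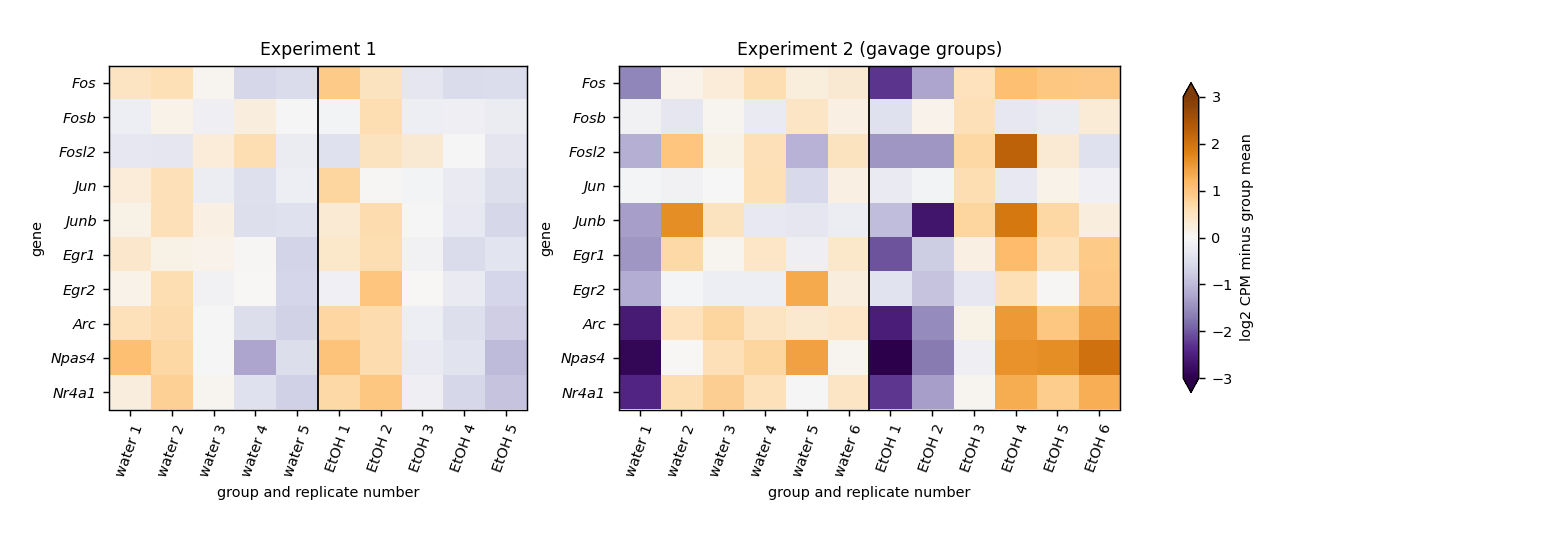
Deviation of each rat from its group mean (colour, log2 CPM) for the 10 immediate early genes (rows) in the rats of experiment 1 and of experiment 2 (columns, by group and replicate number). In experiment 1, rats 1 and 2 of each group are above the mean for most genes and rats 4 and 5 below it, while in experiment 2 water gavage 1 and EtOH gavage 1 and 2 are far below it for Fos, Egr1, Arc, Npas4 and Nr4a1.

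The most closely varying pair was Junb and Nr4a1, with r = 0.973 (permutation p = 0.00022) and Spearman's rho = 0.952 (permutation p = 0.00062). Without the 2 rats farthest from the median of Junb, r was 0.953 over 8 rats. Fos and Arc followed with r = 0.970 (permutation p = 0.00051) and rho = 0.891 (permutation p = 0.00263), and r was 0.965 without the 2 farthest rats. Arc and Nr4a1 gave r = 0.963 (permutation p = 0.00014) and rho = 0.939 (permutation p = 0.00102), and 0.947 without the 2 farthest. Fos and Npas4 gave r = 0.937 (permutation p = 0.00056) and rho = 0.879 (permutation p = 0.00346), and 0.924 without the 2 farthest. Arc and Npas4 gave r = 0.935 (permutation p = 0.00105) and rho = 0.891 (permutation p = 0.00188), and 0.908 without the 2 farthest. The Benjamini-Hochberg adjustment was made over 73 pairs, the 45 of experiment 1 and 28 of experiment 2 over 9 rats, without the 3 libraries that stood apart. Pairs over all rats of experiment 2 were not adjusted. After adjustment these 5 pairs had permutation p values of 0.00633 to 0.0096 for r and of 0.0196 to 0.0281 for rho. Of the 45 pairs of experiment 1, 19 had adjusted permutation p values under 0.05 for both coefficients, and all 19 were positive.

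Fosl2 and Fosb were least like the other members. The mean r of a member to the other 9 was 0.754 for Nr4a1, 0.726 for Junb, 0.724 for Arc, 0.683 for Egr1, 0.669 for Fos, 0.664 for Egr2, 0.613 for Npas4 and 0.538 for Jun. It was 0.409 for Fosb and -0.026 for Fosl2. The r between Fosl2 and Fos was -0.308 (permutation p = 0.406, 0.529 adjusted; rho = -0.467, p = 0.203, 0.363 adjusted), and without the 2 rats farthest from the median of Fos it was 0.081. Among the other 8 members, a set chosen after these values were seen, the median r was 0.853.

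**Figure D4:**
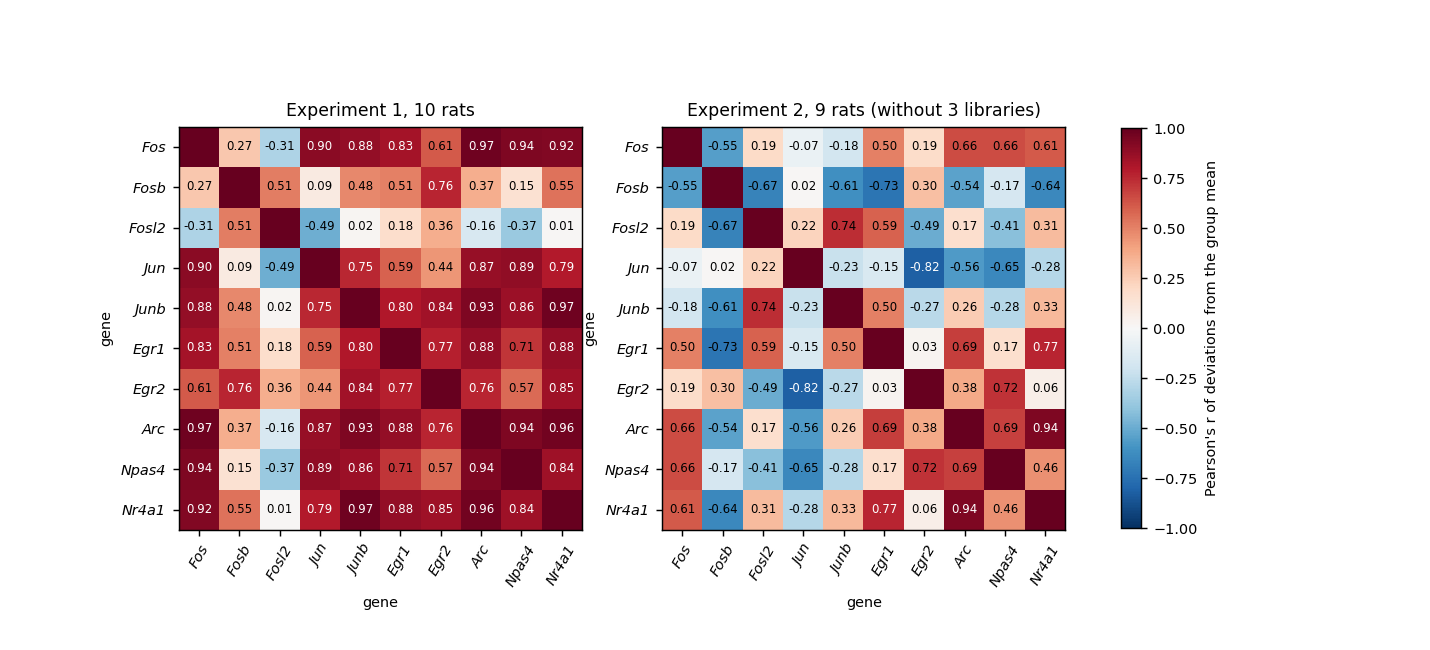
Pearson's r between the within-group deviations (log2 CPM) of each pair of immediate early genes, over the 10 rats of experiment 1 and over the 9 rats of experiment 2 that remain without the 3 libraries. The genes of experiment 1 other than Fosb and Fosl2 are mostly above 0.7, whereas in experiment 2 only Arc with Nr4a1 (0.94), Egr1 with Nr4a1 (0.77) and Egr2 with Npas4 (0.72) are above 0.7 among genes that passed the filter on low counts; Fosl2 and Junb did not pass it there.

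Markers of cell types were read beside this result. Of the 9 markers of striatal projection neurons, 4 had a mean r to the members of 0.5 or more, among them Adora2a (0.649), Ppp1r1b (0.546) and Drd1 (0.504), where 3.99% of the tested genes outside the members did. The mean level of the 9 markers ranged from 8.16 to 8.96 log2 CPM in water rats and from 8.03 to 8.95 in EtOH rats, and none was at 0 in any rat. Markers of pallial excitatory neurons went the other way, 6 of 6 tested having a negative mean r (-0.257 to -0.429) and the mean of the list ranging from 3.57 to 5.91 in water and from 4.57 to 5.74 in EtOH rats. With the mean level of the striatal markers as a covariate, the median r over pairs of members was 0.691, with the pallial markers 0.698, and with the share of reads outside genes 0.788. The relations to the markers were different in experiment 2. There the median over the striatal markers of the mean r to the members was -0.077 over 12 rats and 0.105 over the 9 without the 3 libraries. For the 5 pallial markers tested it was 0.478 and -0.034.

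The genes whose deviations were most like those of the members in experiment 1 were, by mean r over the 10 members, Exosc4 (0.715), Ppp1r15a (0.715), Pcdhga10 (0.714), Dusp1 (0.713), Rgcc (0.709), Arl4d (0.704), Arhgap27 (0.703), Sntb1 (0.696), Armc10 (0.693) and Sec11a (0.692). Pcdhga10 belongs to a gene cluster with shared exons, so its count is uncertain. Genes that act after or before the members in the same response were read from 4 lists. Of the feedback inhibitors, most of which switch off kinase or EGR signalling, 4 of 7 tested had a mean r of 0.5 or more. The share among all tested genes outside the members was 3.99%. The 4 were the phosphatase genes Dusp1 (0.713) and Dusp6 (0.536), Spry2 (0.570) and the EGR corepressor gene Nab2 (0.559). The other 3 were negative, Nab1 at -0.417 and Spry4 and Crem at -0.212 each. Of other immediate early transcription factors, 2 of 10 reached 0.5, Klf4 (0.688) and Btg2 (0.612). The relatives of the members were mixed, with Egr3 at 0.492 and Egr4 at 0.312 but Nr4a2 at -0.352 and Nr4a3 at -0.234. Of the activity-regulated effectors, 3 of 13 reached 0.5, Arl4d (0.704), Gadd45g (0.657) and Sik1 (0.625), while Homer1 was at 0.054. None of the 17 upstream regulators did, the highest being the calcineurin gene Ppp3ca at 0.406.

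As to the difference between EtOH and water rats, no gene of these 4 lists passed FDR 0.05 in experiment 1. Higher and lower values were counted in 9 and 1 of the 10 other immediate early factors, 10 and 3 of the 13 effectors, 5 and 2 of the 7 feedback inhibitors and 7 and 10 of the 17 upstream regulators. The median log2 differences were 0.19, 0.044, 0.14 and -0.017 in that order, beside -0.0012 over all genes tested. The genes of a list were measured in the same rats, and these counts were not tested. Nr4a2, a nuclear receptor of dopamine neurons and an immediate early gene elsewhere, was measured at 58.3 ± 20.2 (SD, n = 5) in water and 94.2 ± 35.1 (SD, n = 5) in EtOH rats, a log2 difference of 0.69 ± 0.26 (SE; edgeR unadjusted P = 0.0174, FDR 0.861). Dusp6, a phosphatase acting on ERK, was measured at 93.0 ± 6.98 (SD, n = 5) and 124 ± 26.0 (SD, n = 5), a log2 difference of 0.43 ± 0.14 (SE; edgeR unadjusted P = 0.00813, FDR 0.823). The sprouty genes Spry2 and Spry4 pointed in opposite directions, with log2 differences of -0.26 ± 0.093 (SE) and 0.35 ± 0.16 (SE). Elk1, a partner of SRF, and Crtc2, a coactivator of CREB, had log2 differences of -0.27 ± 0.095 (SE) and -0.22 ± 0.092 (SE). These 6 genes were the ones with an unadjusted P under 0.05 among the lists, where 3% of all genes tested were nominally higher and 2.58% lower at that level. Cell type markers differed nominally between the same groups. The 3 neuroblast markers tested, Dcx, Dlx1 and Cd24, were all higher in EtOH rats at an unadjusted P under 0.05 (median log2 difference 0.55). Their list ranged from 5.59 to 6.23 log2 CPM in water and from 6.19 to 6.71 in EtOH rats. The study lists these 3 genes among its 10 with the lowest P-value for the same rats, so their being higher repeats that result. Of the striatal projection neuron markers, 8 of 9 were lower (median -0.25). All 5 vascular markers were higher, 2 of them at that level of P, as was the 1 ependymal marker tested. Of the pallial markers 5 were higher and 1 lower, the latter at that level, and the microglial, oligodendrocyte and astrocyte markers were mixed. None of these markers passed FDR 0.05 in edgeR, and their part in the differences of the list genes and members was not tested.

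In experiment 2, EtOH gavage was not accompanied by a detectable change either. Of the 8 members that passed the filter on low counts, 7 were nominally lower and 1 (Jun) higher after EtOH gavage, with a median log2 difference of -0.37 against 0.00089 over all 8655 genes tested. Without the 3 libraries that stood apart, 2 of which were EtOH gavage rats, the median was -0.17, and 3 of the 8 were nominally higher. Leaving out 1 rat moved the median to between -0.70 (without EtOH gavage 6) and -0.19 (without EtOH gavage 2). No gene passed FDR 0.05 (percent called 0; lowest FDR 0.675) and 115 had an unadjusted P under 0.05. DESeq2 called 0 genes as well, with 315 at an unadjusted P under 0.05. Among the 8 members, the same edgeR test gave Benjamini-Hochberg adjusted FDR values of 0.675 to 0.956. The groups overlapped for all 10 members, while 0.0116% of the genes tested lay wholly lower and 0 wholly higher with EtOH gavage.

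The 3 libraries held the lowest counts of 7 members. Fos was measured at 22.3 in water gavage 1 and at 8.8 and 20.2 in EtOH gavage 1 and 2, against 74.4 to 112 in the other 9 rats. Arc was measured at 73.9, 37.4 and 77.2 in these libraries against 251 to 770 elsewhere, and Npas4 at 24.3, 6.6 and 26.1 against 80.2 to 518. Nr4a1 was at 42.5, 23.1 and 46.3 against 126 to 429, and Egr1 at 139.7, 53.9 and 134 against 259 to 615. The ranges of these 5 genes did not overlap. Egr2 (28.3, 45.1 and 32.1 against 48.3 to 171) and Junb (10.1, 4.4 and 0 against 12.6 to 93.8) were also lowest there, by a narrower gap. Fosb (89.1, 68.2 and 99.8 against 73.3 to 138) and Jun (118, 111 and 126 against 80.3 to 207) lay within or near the range of the other rats.

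**Figure D5:**
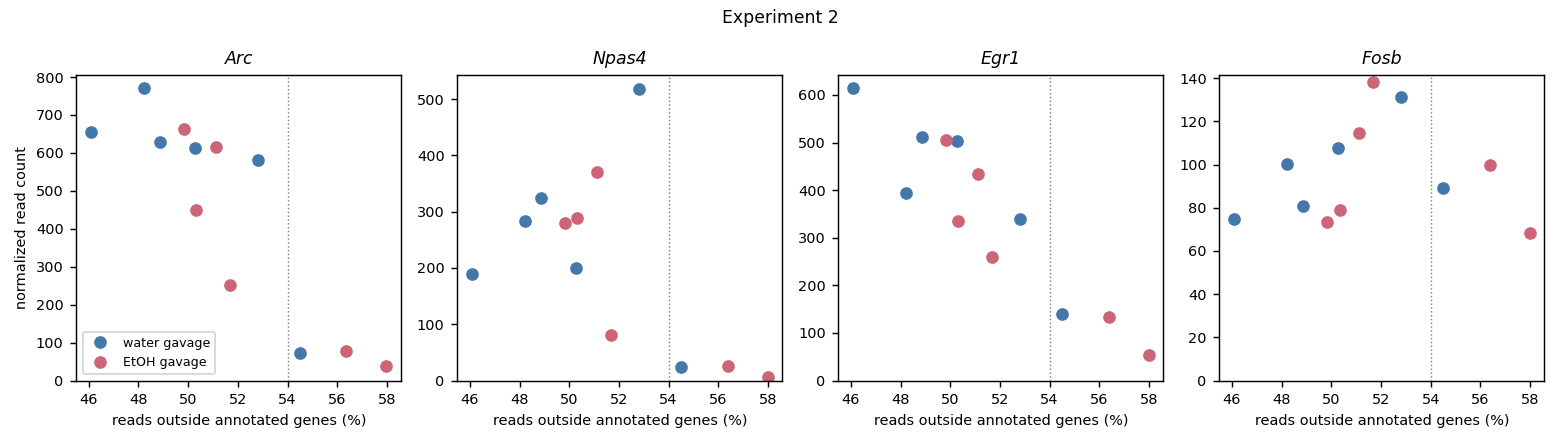
Normalized read count (y axis) of Arc, Npas4, Egr1 and Fosb against the share of reads outside genes (x axis, percent of these reads plus the reads on genes) in the 12 rats of experiment 2, with a dotted line at 54%. The 3 libraries to the right of the line have the lowest Arc (37.4 to 77.2), Npas4 (6.6 to 26.1) and Egr1 (53.9 to 139.7), whereas their Fosb lies among or near the other rats.

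Some other measures set the same 3 libraries apart, and others did not. Their mean levels of microglial markers (4.14, 4.19 and 4.265 log2 CPM) and vascular markers (4.58, 4.43 and 4.70) were below those of the other 9 libraries (4.56 to 5.64 and 4.99 to 5.64), and their astrocyte markers were also lowest. Pallial neuron markers were at 0.97, -0.22 and 2.69 against -0.41 to 5.57, and striatal projection neuron markers at 8.70, 8.82 and 8.95 against 8.48 to 9.41. The first principal component of the deviations, which held 73.2% of the within-group variance, also put these 3 libraries lowest (-73.0 to -35.0), with water gavage 5 next to them at -32.7 and the other 8 at 10.2 or above. The part of these differences in the low counts of the members was not tested. Water gavage 5, the library with the next highest share, 52.8% of reads outside genes, had the highest Npas4 and Egr2 of all 12 rats.

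Taking the AP-1 genes first, Fos ranged from 22.3 to 110 with a median of 85.2 in water gavage rats and from 8.8 to 112 with a median of 87.2 in EtOH gavage rats. Its log2 difference was -0.17 ± 0.52 (SE, n = 6 per group), and 0.12 ± 0.19 (SE, n = 5 and 4) without the 3 libraries. Fosb ranged from 74.9 to 131 (median 94.6) and from 68.2 to 138 (median 89.3), with a log2 difference of -0.027 ± 0.22 (SE) and of 0.038 ± 0.25 (SE) without the 3 libraries. The direction of both genes thus turned with those libraries. Jun ranged from 80.3 to 187 (median 120) and from 107 to 207 (median 123.6), with log2 differences of 0.10 ± 0.22 (SE) and 0.18 ± 0.27 (SE). Groups overlapped throughout.

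Fosl2 and Junb did not pass the filter on low counts in experiment 2. Fosl2 reached 23.0 at most, and no read was counted in EtOH gavage 1 and 2, which at the depth of these libraries allows up to 0.389 and 0.447 CPM (3 counts per library, counting error only). Junb ranged from 10.1 to 93.8 (median 23.7) after water gavage and from 0 to 46.0 (median 15.6) after EtOH gavage, its 0 being in EtOH gavage 2. In the fit without a filter Junb had a log2 difference of -1.04 ± 0.69 (SE; 95% interval -2.52 to 0.43), and of -0.75 ± 0.51 (SE) without the 3 libraries.

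Egr1 ranged from 139.7 to 615 (median 449) after water gavage and from 53.9 to 506 (median 297) after EtOH gavage. The log2 difference was -0.54 ± 0.46 (SE), and -0.30 ± 0.22 (SE) without the 3 libraries. Egr2 ranged from 28.3 to 171 (median 61.0) and from 32.1 to 117.5 (median 55.2), with log2 differences of -0.20 ± 0.41 (SE) and -0.096 ± 0.38 (SE). In both genes the lowest rats were among the 3 libraries, and the rest of the groups overlapped.

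Npas4 ranged from 24.3 to 518 (median 241) after water gavage and from 6.6 to 369.8 (median 179.6) after EtOH gavage, a log2 difference of -0.55 ± 0.77 (SE) and of -0.25 ± 0.40 (SE) without the 3 libraries. Arc ranged from 73.9 to 770 (median 621) and from 37.4 to 662 (median 350), a log2 difference of -0.67 ± 0.63 (SE; 95% interval -2.02 to 0.69). Without the 3 libraries Arc was at 650 ± 72.2 (SD, n = 5) and 494 ± 186 (SD, n = 4), a log2 difference of -0.39 ± 0.23 (SE; 95% interval -0.91 to 0.12). Nr4a1 ranged from 42.5 to 429 (median 338.5) and from 23.1 to 303 (median 174), a log2 difference of -0.77 ± 0.59 (SE; 95% interval -2.06 to 0.51). Without the 3 libraries Nr4a1 was at 341 ± 71.2 (SD, n = 5) and 238 ± 83.3 (SD, n = 4), a log2 difference of -0.52 ± 0.25 (SE; edgeR unadjusted P = 0.0652, FDR 0.999). In the same fit 1.26% of genes had an unadjusted P under 0.05. Over all 12 rats the exact permutation tests gave p = 0.128 to 0.81 (two-sided), where 0.00216 was the smallest value possible.

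Among rats of a group, the members of experiment 2 varied together when the 3 libraries were included and little without them. Over the 9 other rats the median r over 28 pairs was 0.113 against -0.002 over all pairs of genes tested, and 3 of the 28 pairs (10.7%) reached 0.7, close to the 9.75% of all pairs. With all 12 rats, which fell into separate clusters, the median was 0.616, 12 of the 28 pairs (42.9%) reached 0.7, and so did 17.1% of all pairs of genes tested. Arc and Nr4a1 remained closely tied over the 9 rats, with r = 0.935 and rho = 1 (exact permutation p = 0.000347 for each, the smallest 9 rats can give here; adjusted over the 73 pairs, 0.00633 and 0.0196). Without the 2 rats farthest from the median of Arc, r was 0.856. Next were Egr1 and Nr4a1 (r = 0.765, rho = 0.783), Egr2 and Npas4 (r = 0.724, rho = 0.767), Egr1 and Arc (r = 0.689, rho = 0.783) and Arc and Npas4 (r = 0.686, rho = 0.233). Their exact permutation p values for r were 0.0299, 0.0285, 0.0639 and 0.158, or 0.0808, 0.080, 0.150 and 0.268 when adjusted. Their exact permutation p values for rho, when adjusted, were 0.11, 0.113, 0.11 and 0.728. Without the 2 farthest rats these r values were lower, at 0.239, 0.494, 0.319 and 0.171 over 7 rats. Leaving out the farthest rats narrows the range and can lower r by itself, so whether the 4 relations rested on them was not settled. Jun and Egr2, chosen after the values were seen, ran in opposite directions (r = -0.819, rho = -0.817; exact permutation p = 0.017 and 0.0153, adjusted 0.0517 and 0.0486), and r was -0.715 without the 2 farthest.

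In the 9 rats of experiment 2 no gene outside the members had a mean r to them of 0.5 or more (0.0% of 8647), the highest being Agk at 0.428, Megf10 at 0.421 and Slc13a5 at 0.418. The feedback inhibitors Dusp1, Dusp6, Spry2 and Nab2 were at -0.042, -0.035, 0.242 and 0.0015. Over all 12 rats 27.7% of the 8647 genes reached 0.5, as did 4 of the 7 feedback inhibitors tested, with Dusp1, Dusp6, Spry2 and Nab2 at 0.068, 0.509, 0.561 and 0.692. For the difference between gavage groups, no gene of the 4 lists passed FDR 0.05, and 1 had an unadjusted P under 0.05, where 0.705% of all genes tested were nominally higher and 0.624% lower. It was Nr4a3, a relative of Nr4a1, at 137 ± 37.7 (SD, n = 6) in the water gavage group and 191 ± 37.2 (SD, n = 6) in the EtOH gavage group, a log2 difference of 0.49 ± 0.22 (SE; edgeR unadjusted P = 0.0425, FDR 0.675). Its direction was opposite to that of Nr4a1, and without the 3 libraries its log2 difference was 0.49 ± 0.15 (SE; edgeR unadjusted P = 0.0083, FDR 0.999). Egr3, a relative of Egr1, had a log2 difference of -0.58 ± 0.32 (SE), and -0.42 ± 0.25 (SE) without the 3 libraries. The neuropeptide precursor gene Vgf had one of -0.81 ± 0.41 (SE), and -0.66 ± 0.21 (SE; edgeR unadjusted P = 0.00818, FDR 0.999) without them. The kinase genes Camk4 and Camk2a had log2 differences of -0.31 ± 0.16 (SE) and -0.64 ± 0.36 (SE), and Nab2 one of -0.31 ± 0.26 (SE). Without the 3 libraries these were -0.36 ± 0.17 (SE), -0.46 ± 0.25 (SE) and -0.20 ± 0.13 (SE). The median log2 difference was 0.025 over 6 other immediate early factors, 0.10 over 13 effectors, 0.067 over 7 feedback inhibitors and 0.033 over 17 upstream regulators, each beside 0.00089 over all genes tested. Without the 3 libraries these medians were 0.19, 0.049, 0.041 and -0.058, beside -0.017 over all genes tested, and again no list gene passed FDR 0.05.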

How the data were processed

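Members, lists and tests were chosen with earlier results of these data known. PolyA+ RNA was sequenced with non-stranded libraries in experiment 1 and strand-specific libraries in experiment 2. The authors aligned reads with TopHat2 2.0.13 to rn6 (Rnor_6.0) and counted them per gene with htseq-count; the deposited values are raw counts. The strand setting and annotation release are not given in the sources used here. The 5 summary lines of each file (reads outside genes, ambiguous and the like) were left out of library sizes. As in the study, tests were limited to the 50% of genes (8655 per experiment) with the higher base means. From the counts, edgeR 4.0.16 (TMM, quasi-likelihood, Benjamini-Hochberg) was fitted to each experiment in R 4.3.3, with DESeq2 1.42.0 as an alternative; "FDR" is the adjusted P. Normalized read counts are counts divided by the TMM-scaled library size of each rat and multiplied by the mean of these sizes in its experiment. Base means used DESeq2 size factors. Log2 CPM used a prior count of 2. Correlations used 100000 permutations within groups, or all orders for 9 rats. Genes were named from the members, the 4 genes per list with the lowest P, the 5 closest pairs and the 10 most like genes per experiment, not all of which are printed; list genes named by their mean r, and Jun with Egr2, were chosen after the values were seen. Fits were tested on simulated data. Values of 1 striatal marker gene are not reported here. No 2 libraries of a group agreed within sampling noise.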

Additional observations from a re-analysis of the deposited data

Results flagged for a closer look

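For each of the 10 genes in each of the 4 groups, the highest and lowest normalized read count were compared with the other rats by Dixon's gap, the distance to the nearest rat divided by the range of the group. Of 40 sets of values, 6 exceeded the 95% critical value. That value assumes normally distributed values, whereas the counts were not logged, and the 10 genes were measured in the same rats. The number of flags was therefore not compared with a number expected by chance. In EtOH rats of experiment 1, rat 2 stood above the others for Fosb (209 against 115 to 127; gap 0.869) and for Egr2 (152 against 47.6 to 75.3; gap 0.734). Among water gavage rats, rat 5 stood above the others for Egr2 (171 against 28.3 to 77.4; gap 0.657), rat 2 above the others for Junb (93.8 against 10.1 to 40.9; gap 0.633), and rat 1, 1 of the 3 libraries rich in reads outside genes, below the others for Arc (73.9 against 582.5 to 770; gap 0.731). Among EtOH gavage rats, rat 4 stood above the others for Fosl2 (23.0 against 0 to 6.76; gap 0.706).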

How the results depend on the processing

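The number of genes at FDR 0.05 was 0 under every alternative run in both experiments (DESeq2, DESeq2 size factors, no filter, at least 10 counts in every sample, another edgeR dispersion setting, the replicate block, and each rat left out), and no member was called. In experiment 1 the direction of 8 members turned when single rats were left out, EtOH rats 1 and 2 and water rat 5 most often. The log2 differences ranged from -0.11 to 0.336 for Fos, from -0.0366 to 0.226 for Fosb, from -0.0689 to 0.166 for Fosl2, from -0.202 to 0.201 for Jun, from -0.273 to 0.0952 for Junb, from -0.0951 to 0.207 for Egr1, from -0.0804 to 0.475 for Egr2 and from -0.176 to 0.396 for Nr4a1. Arc ranged from 0.00297 to 0.39 and Npas4 from 0.115 to 0.715, without a change of direction. In experiment 2 they ranged from -0.359 to 0.0674 for Fos (turned without EtOH gavage 1 or 2), from -0.162 to 0.0775 for Fosb (turned without water gavage 5 or 6 or EtOH gavage 1, 4 or 5) and from -0.0552 to 0.247 for Jun (turned without EtOH gavage 3). Fosb there was also 0.00124 with DESeq2, 0.000566 with no filter and 0.0377 without the 3 libraries rich in reads outside genes, and Fos 0.116 without them. The median r over pairs in experiment 2 was 0.113, and 3 pairs reached 0.7, without those libraries, and over all 12 rats 21 of 45 pairs reached it with Fosl2 and Junb included. No label says what a replicate number marks. Over all genes, same-numbered rats of experiment 1 did not deviate together (r from -0.125 to 0.144). In experiment 2 some same-numbered rats did and others ran in opposite directions (r from -0.759 to 0.835). In experiment 1 only water rat 1 correlated best with the EtOH rat of its own number, and in experiment 2 no water gavage rat did. With the replicate number as a block, 476 and 414 genes had an unadjusted P under 0.05, against 483 and 115 without it, and the median log2 difference of the members was 0.0941 and -0.555. The median r over pairs was then 0.167 with 11 pairs at 0.7 in experiment 1, where the rats numbered 1 and 2 had the highest levels of 6 members in both groups, and 0.143 in experiment 2; the cause was not tested. Depth limits the precision of Npas4, with as few as 20 counts in a library of experiment 1 and 6 in experiment 2, and of Fosl2 and Junb in experiment 2, which reached 0 counts.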

Other observations

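CPM (counts scaled to the reads on genes of each library) were lower in experiment 2 for most members. The experiments also differed in library type, sequencer and read length, so these and the experiment itself cannot be told apart. The median over rats was 10.8 CPM for Fosl2 in experiment 1 and 0.767 in experiment 2, 58.8 and 2.73 for Junb, 29.9 and 11.1 for Fos, and 55.8 and 15.9 for Jun. Egr1 (114 and 48.5), Nr4a1 (103 and 34.8) and Arc (120 and 78.4) were also lower in experiment 2, whereas Npas4 was higher (18.7 and 32.0). Without the 3 libraries rich in reads outside genes the medians of experiment 2 were 1.35 for Fosl2, 3.01 for Junb, 12.1 for Fos, 16.1 for Jun, 57.5 for Egr1, 40.5 for Nr4a1, 82.1 for Arc and 37.3 for Npas4.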
